A study of Homo sapiens with 5 samples.

Results

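Interferon-stimulated genes are the genes that cells switch on when interferons reach their receptors. A list of 47 of them was followed through the 30476 genes of the count table, each found by the Ensembl identifier that maps to its symbol, and all 47 were in the table. The rule used symbols only and no measured value, although the list was chosen with earlier results of these data known. RNA-seq of total RNA had been performed on TOV21G, an established cell line from an ovarian clear cell carcinoma that carries mutated ARID1A, a subunit of the SWI/SNF chromatin remodeling complex. The 5 libraries comprised untreated parental TOV21G cells (1 library) and 2 resistant clones, numbered 3 and 4, each untreated (1 library per clone) and treated with GSK126 (1 library per clone). GSK126 inhibits EZH2, the enzyme that writes the repressive histone mark H3K27me3. The EZH2 inhibitor-resistant (EIR) clones had been picked from parental cells taken stepwise through 5, 10, 15 and 20 uM GSK126, so all 4 EIR libraries share this exposure, and the dose given to the treated cultures is not stated in the labels.

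Several features of this design limit what a group stands for. Each clone descends from picked cells of the same line, parental cells have a single library, and nothing in the labels says that the untreated and treated libraries of a clone came from separate cultures. The p-values therefore measure only the spread between these libraries, which may be technical, and any difference from parental cells rests on 1 parental library. Total counts lay between 25479238 and 30764963 per library, of which the 47 genes took 0.127% to 0.165%. Markers of the tumor line were present in part, with PAX8 at 3083 to 4523 and KRT18 at 11981 to 18326 normalized read counts, that is counts divided by the DESeq2 size factor of the library. EPCAM, an epithelial surface protein, had 401 in parental cells and 394 and 492 in clone 3 but 0 and 1.06 in clone 4. CDH1, the epithelial cadherin, had 6.04 in parental cells, 100 and 146 in clone 3 and 2.03 and 4.23 in clone 4. NAPSA, a protease used as a clear cell marker, had 2.01, 49.1 and 49.4, and 6.10 and 4.23 in the same order. Markers of other cell types were low. The 5 leukocyte markers found in the table summed to 26.4 to 130.5 normalized read counts, 5 fibroblast markers to 53.9 to 128.7 and 2 endothelial markers to 9.06 to 21.2.

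Interferons of type I and type III act through the kinases JAK1 and TYK2. These activate STAT2, which works with IRF9 in a complex called ISGF3 that binds the interferon-stimulated response element in the promoters of its target genes. Type II interferon acts through JAK1 and JAK2 instead. The products of the target genes sense viral RNA, cut or edit it, trap or block viral particles, or tune the pathway itself. Tumor cells can carry some of these products at a steady level without added interferon.

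The promoters of the list were first examined for the response element. RefSeq promoter windows (GRCh38.p14, from 250 bases before to 50 bases after a transcript start) were at hand for 38 of the 47 genes and not for the other 9. The core motif GAAANNGAAA, where N is any base, was searched on both strands, with overlapping matches counted. It occurred in a window of 27 of the 38 genes (71.1%), whereas 4.38% of 27305 genes with such a window held it. Among genes that differed between EIR and parental cells or between the clones by the tests below, 12 of 17 with a window held the motif. Of the other members with a window, 15 of 21 held it, so both kinds carried it at a like share. IFI35, OAS1, DDX58, STAT2, IRF1, IRF9, HERC6, SAMHD1, XAF1, CMPK2 and ADAR had no match in these windows. Stretches upstream of the start are shown for genes whose values are described below, read 5′ to 3′ on the strand of the gene, with each match in capitals, so that a match on the opposite strand appears as its reverse complement.
ISG15, chr1:1013369-1013414, plus strand: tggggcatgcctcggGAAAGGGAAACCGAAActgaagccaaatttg
BST2, chr19:17405730-17405775, minus strand: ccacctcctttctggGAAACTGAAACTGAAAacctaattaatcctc
IFI44, chr1:78649756-78649788, plus strand: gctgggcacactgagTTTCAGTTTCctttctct
HERC5, chr4:88456979-88457069, plus strand: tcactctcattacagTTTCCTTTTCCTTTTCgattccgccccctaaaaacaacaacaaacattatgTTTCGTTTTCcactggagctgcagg
IFITM1, chr11:313985-314024, plus strand: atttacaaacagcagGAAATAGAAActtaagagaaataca
IFITM3, chr11:320871-320927, minus strand: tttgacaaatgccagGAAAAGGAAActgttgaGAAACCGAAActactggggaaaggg
MX1, chr21:41431839-41431878, plus strand: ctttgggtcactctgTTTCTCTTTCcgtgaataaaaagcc
GBP1, chr1:89065311-89065350, minus strand: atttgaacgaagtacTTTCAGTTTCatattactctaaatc
LGALS3BP, chr17:78979957-78979996, minus strand: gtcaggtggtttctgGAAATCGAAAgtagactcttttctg
ISG15 and BST2 each held a run of overlapping matches, HERC5 had a pair of overlapping matches with another nearer the start, and IFI44, IFITM1, MX1, GBP1 and LGALS3BP held a lone upstream match in the window shown. These coordinates are on GRCh38 and differ from those of the count table, which was built on hg19 (GRCh37). A match describes letters only.

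The levels of the 47 genes spanned more than 3 orders of magnitude when normalized read counts were divided by the length of the canonical transcript. At the top stood LGALS3BP, a secreted glycoprotein, at 2549 normalized counts per kilobase on average over the 5 libraries, and BST2, a membrane tether of budding virus, at 2478. IFITM1, which blocks viral entry at membranes, followed at 1597, and ADAR, an editor of RNA duplexes, at 1375. At the other end, several genes that strong interferon signaling switches on were close to absent. MX2 stood at 0.647 per kilobase, EPSTI1 at 1.82, OASL at 1.96, RSAD2 (viperin) at 2.11, IFI44L at 2.23, OAS2 at 2.34 and CMPK2 at 2.80. In all, 33 members had a mean of at least 100 normalized read counts and are called expressed here, 14 lay below this, and 5 lay below 10. In the parental library 6 members held 3 counts or fewer, namely IFI44, MX2, OAS2, RSAD2, CMPK2 and GBP1. No member was at 0 in all 5 libraries, and 3 were at 0 in some library (MX2 in parental cells, OAS2 and CMPK2 in untreated clone 4).

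**Figure D1:**
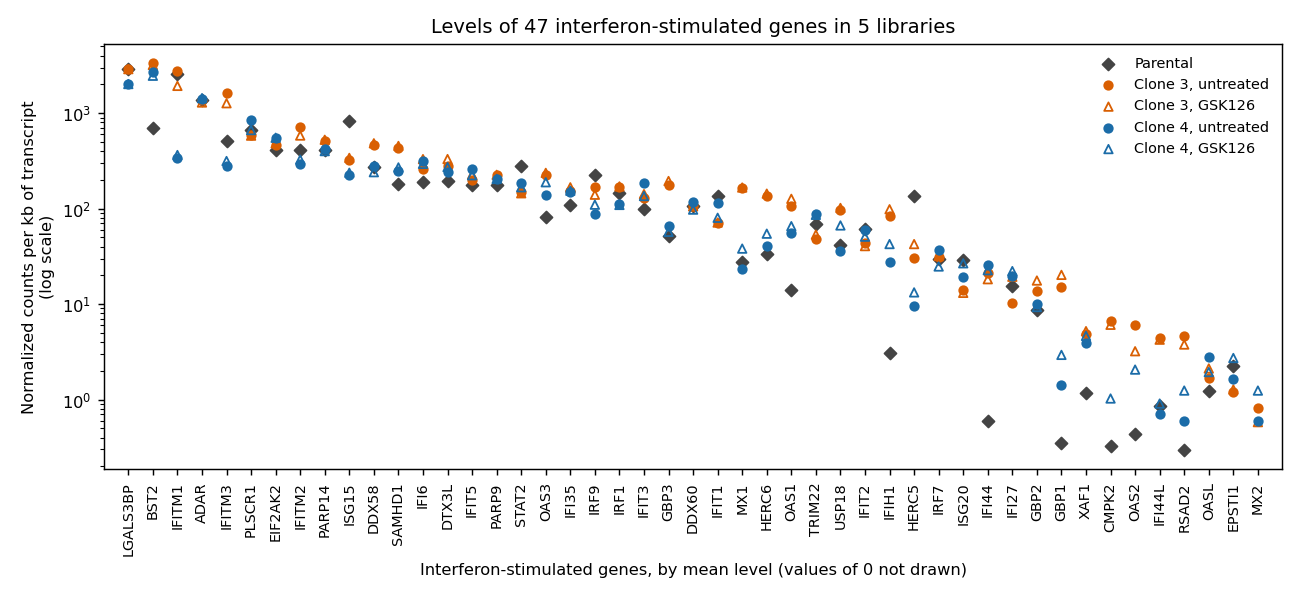
Normalized read counts per kilobase of canonical transcript (log axis) for the 47 genes, ordered by their mean, in the 5 libraries (diamonds parental, orange clone 3, blue clone 4, filled untreated, open triangles GSK126-treated). LGALS3BP and BST2 lie highest and MX2 lowest, with values of 0 not drawn.

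The first question was whether the list as a whole differed between EIR and parental cells. In the 4 EIR libraries against the parental library, 5 of the 42 members that received an adjusted p passed 0.05 upward (11.9%) and 3 downward (7.14%) by DESeq2. Of all 16288 genes tested, 12.4% passed upward and 13.2% downward, so the shares of the members were close to or below those of all genes. IFI44, IFIH1, OAS1, OAS3 and BST2 were higher in EIR cells, and ISG15, STAT2 and HERC5 were lower. The median log2 ratio of the mean of EIR libraries to parental cells was 0.31 over the 33 expressed members and -0.08 over 11564 expressed genes.

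Among the sensors, IFIH1 (MDA5, a cytoplasmic receptor for long RNA duplexes) rose most among the expressed members. Its normalized read counts (ENSG00000115267, chromosome 2, 163123584 to 163175194, minus strand, GRCh37) were 11.1 in parental cells, 299 in untreated and 353 in GSK126-treated clone 3, and 98.7 in untreated and 152 in GSK126-treated clone 4. All 4 EIR libraries lay far above parental cells, and both clone 3 libraries lay above both clone 4 libraries. The log2 fold change of EIR against parental cells was 4.35 (SE 0.83, adjusted p 4.22e-06). Within 1 Mb of IFIH1, 3 other expressed genes had a median log2 ratio to parental cells of 2.50 in clone 3 and 0.82 in clone 4, and the part of this neighborhood in the result was not tested.

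Of the oligoadenylate synthetases, which make the messenger that activates the RNA-cutting enzyme RNase L, OAS1 and OAS3 rose. OAS1 (ENSG00000089127, chromosome 12, 113343661 to 113371024, plus strand) had 23.2 in parental cells, 173 in untreated and 207 in GSK126-treated clone 3, and 89.5 in untreated and 107 in GSK126-treated clone 4. OAS3 (ENSG00000111331, chromosome 12, 113375856 to 113414265, plus strand) had 533 in parental cells, 1475 in untreated and 1562 in GSK126-treated clone 3, and 908 in untreated and 1246 in GSK126-treated clone 4. In both genes every EIR library exceeded parental cells, and the lowest EIR value was that of untreated clone 4. The log2 fold change was 2.64 (SE 0.64, adjusted p 0.000485) for OAS1 and 1.28 (SE 0.35, adjusted p 0.00205) for OAS3. OAS2, the neighbor of OAS3, stayed near the detection limit with 2.01 in parental cells, 27.8 and 14.8 in clone 3, and 0 and 9.52 in clone 4. OASL, a relative without synthetase activity, had 4.03 in parental cells and 5.55 to 9.16 in EIR cells.

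BST2 (tetherin) rose as well. Its values (ENSG00000130303, chromosome 19, 17513748 to 17516439, minus strand) were 701 in parental cells, 3329 in untreated and 3200.0 in GSK126-treated clone 3, and 2707 in untreated and 2466 in GSK126-treated clone 4. EIR libraries averaged 2926 ± 407 (SD, n = 4 libraries from 2 clones), and all 4 exceeded parental cells. The mean of clone 3 was 4.66-fold and that of clone 4 3.69-fold the parental value. The log2 fold change was 2.06 (SE 0.25, adjusted p 1.99e-14), and the adjusted p stayed at or below 0.0056 over all alternatives.

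IFI44, a cytoplasmic protein of little-known function, held 1 count in parental cells and 147 counts summed over the 4 EIR libraries (ENSG00000137965, chromosome 1, 79115481 to 79129763, plus strand). As normalized read counts these were 1.01 in parental cells, 35.2 in untreated and 30.6 in GSK126-treated clone 3, and 42.7 in untreated and 38.1 in GSK126-treated clone 4. The ratio of EIR to parental cells was 36.3, with a 95% exact interval from 6.42 to 1444 that covers counting error only, and all 4 EIR libraries were of a like level (adjusted p 0.00541). Its neighbor IFI44L did not follow in both clones, with 5.04 in parental cells, 25.9 and 24.7 in clone 3 and 4.07 and 5.29 in clone 4. The rest of the IFI genes showed smaller differences that did not pass the test. IFI6, an inner membrane protein of mitochondria that opposes cell death, had 153 in parental and 211 to 268 in EIR cells (adjusted p 0.074). IFI35 had 129 in parental and 178 to 198 in EIR cells (adjusted p 0.172), and both passed with GC-corrected counts (adjusted p 0.00739 and 0.0109). IFI27 was listed at 7.41 to 15.9 in EIR and 11.1 in parental cells.

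The 3 members that fell are tied to a ubiquitin-like pathway and to the ISGF3 complex. ISG15 (ENSG00000187608, chromosome 1, 936518 to 949920, plus strand), a small ubiquitin-like protein that is attached to other proteins, had 529 in parental cells, 206 in untreated and 216 in GSK126-treated clone 3, and 142 in untreated and 151 in GSK126-treated clone 4. Every EIR library held less than parental cells, and EIR libraries averaged 179 ± 37.7 (SD, n = 4 libraries from 2 clones). HERC5 (ENSG00000138646, chromosome 4, 89378270 to 89427314, plus strand), the main ligase that attaches ISG15, had 471 in parental cells, 107 in untreated and 149 in GSK126-treated clone 3, and 33.6 in untreated and 46.6 in GSK126-treated clone 4, again lower in every EIR library. STAT2 (ENSG00000170581, chromosome 12, 56735381 to 56753987, minus strand), a subunit of ISGF3, had 1246 in parental cells, 665 in untreated and 637 in GSK126-treated clone 3, and 824 in untreated and 737 in GSK126-treated clone 4. The log2 fold change was -1.56 (SE 0.36, adjusted p 0.000222) for ISG15, -2.48 (SE 0.80, adjusted p 0.0117) for HERC5 and -0.80 (SE 0.23, adjusted p 0.00468) for STAT2. IRF9, the DNA-binding subunit of ISGF3, had 363 in parental and 142 to 271 in EIR cells, without passing the test over the 4 libraries (adjusted p 0.153). USP18, the protease that takes ISG15 off again, had 77.6 in parental cells and 66.1 to 189 in EIR cells (adjusted p 0.359).

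With the quasi-likelihood test of edgeR, 3 members were called higher (IFI44, IFIH1 and BST2) and 1 lower (ISG15). The adjusted p in edgeR was 0.0599 for OAS1, 0.0604 for OAS3, 0.0518 for STAT2 and 0.0717 for HERC5. STAT2 also lost its call with the libraries of each clone summed, at a log2 fold change of -0.79. Without the library of untreated clone 4, 9 members were called higher and 4 lower.

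**Figure D2:**
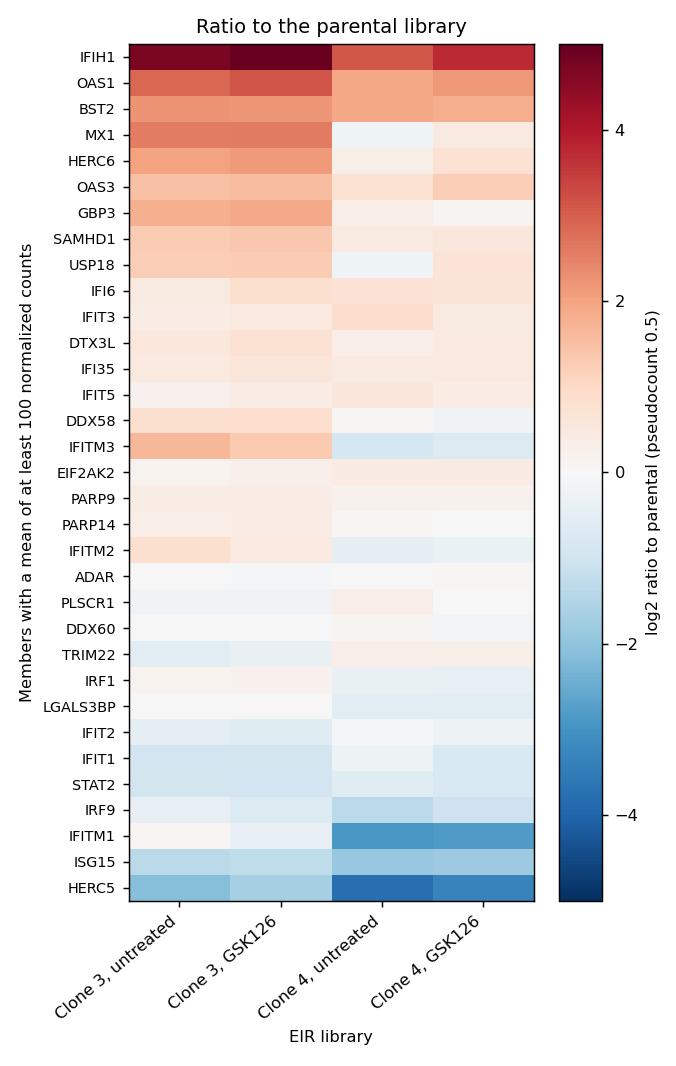
Log2 ratio to the parental library (color, with a pseudocount of 0.5) of the 33 expressed members in the 4 EIR libraries, ordered by their mean. IFIH1 stands at the top and HERC5 at the bottom, and the clone 3 columns differ from the clone 4 columns for MX1, GBP3, IFITM1 and IFITM3.

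The clones were then taken one at a time, in a fit with parental cells, clone 3 and clone 4 as 3 groups. Both contrasts use the same parental library. In clone 3, 14 of 43 tested members were higher than in parental cells (32.6%, where 14.7% of 16886 genes were) and 4 were lower (9.30%, where 14.5% were). In clone 4, 7 of 42 were higher (16.7%, where 14.7% of 16295 genes were) and 7 were lower (16.7%, where 18.3% were). The median log2 ratio to parental cells over the 33 expressed members was 0.36 in clone 3 and 0.17 in clone 4, beside -0.06 and -0.09 over all expressed genes. Members at least 2-fold higher numbered 10 of 33 in clone 3 and 3 of 33 in clone 4, where 7.91% and 7.82% of expressed genes were. At least 2-fold lower were 2 and 4 of 33, where 8.49% and 10.4% of expressed genes were.

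Higher than parental cells in clone 3 were IFI44, IFIH1, IFITM3, MX1, OAS1, OAS3, DDX58, USP18, HERC6, BST2, SAMHD1, DTX3L, GBP1 and GBP3. Lower were IFIT1, ISG15, STAT2 and HERC5. In clone 4, IFI44, IFIH1, OAS1, OAS3, BST2, SAMHD1 and EIF2AK2 were higher, and IFITM1, IFITM3, ISG15, STAT2, IRF9, HERC5 and LGALS3BP were lower. The rise of EIF2AK2 (PKR, the kinase that halts translation on sensing RNA duplexes) was small, with 4093 in parental cells, 4603 in untreated and 4824 in GSK126-treated clone 3, and 5488 in untreated and 5509 in GSK126-treated clone 4. Its log2 fold change in clone 4 was 0.43 (SE 0.16, adjusted p 0.0296), and the direction flipped to -0.038 with GC correction. USP18 in clone 3, at 1.26 (SE 0.51, adjusted p 0.0482), and IFITM3 in clone 4, at -0.78 (SE 0.30, adjusted p 0.0282), kept the call in 4 and 3 of the 9 alternatives. A clone 3 library left out lowered the calls of clone 3 to 10 without the GSK126-treated one and 11 without the untreated one. It also lowered those of clone 4 to 8 in either case.

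**Figure D3:**
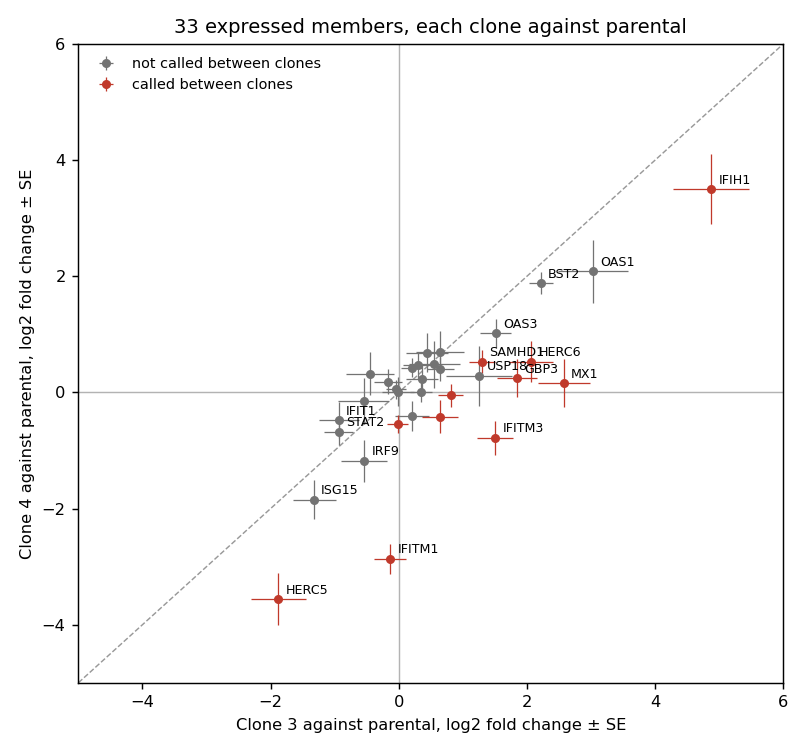
Log2 fold change of clone 3 (horizontal) and clone 4 (vertical) against the parental library for the 33 expressed members, with bars of 1 SE from DESeq2 and a dashed line of equal values. Members called between the clones (red) lie under the line, IFITM1 with the widest gap, and both axes share the parental library. GBP1, under 100 normalized read counts on average, is not drawn.

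The clones were next compared with each other, which involves no parental library, and differences below are log2 fold changes of clone 4 against clone 3. In clone 4 against clone 3, with treatment as a covariate, none of 45 tested members was higher and 12 were lower (26.7%), where 3.3% and 6.52% of 17708 genes were. The 12 were IFIH1, IFITM1, IFITM2, IFITM3, MX1, DDX58, HERC5, HERC6, SAMHD1, GBP1, GBP3 and LGALS3BP. At an unadjusted p under 0.05, 1 member was higher and 21 were lower in clone 4, and in edgeR 3 were higher and 23 lower. The edgeR test called TRIM22 higher in clone 4 (adjusted p 0.0486) beside 14 lower members. Shares of all genes are not given here for the unadjusted and edgeR counts, so these counts have no background beside them. Over the 33 expressed members, both libraries of clone 4 lay below both libraries of clone 3 in 21, where this held for 35.3% of expressed genes. Both lay above in 7, where this held for 27.8% of genes. The median log2 difference of clone 4 minus clone 3 was -0.53 between untreated libraries and -0.38 between GSK126-treated libraries, against 0.01 and -0.08 over all expressed genes.

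**Figure D4:**
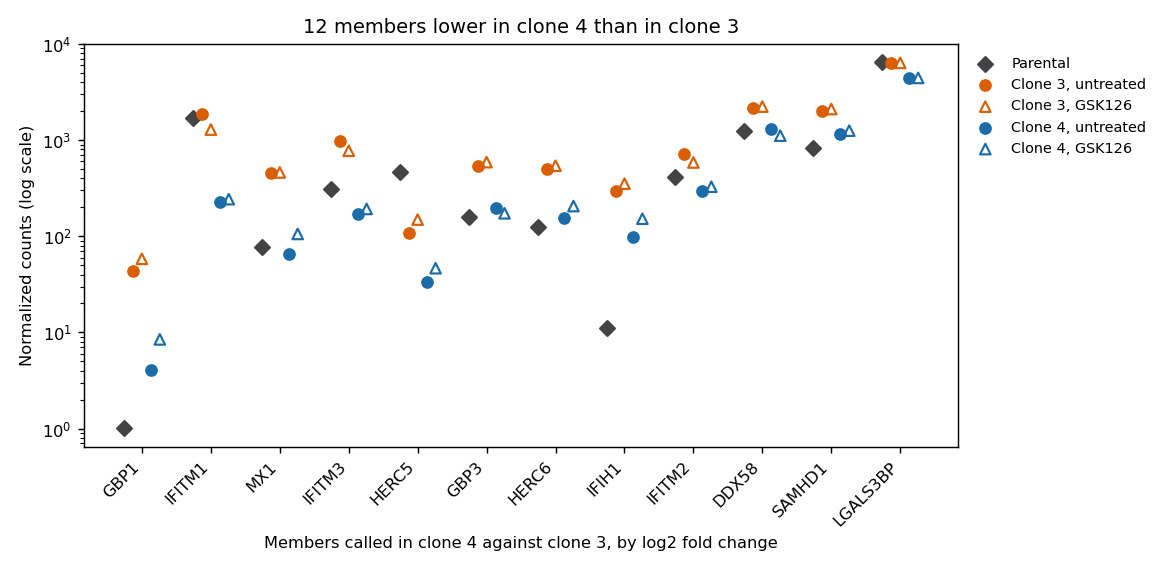
Normalized read counts (log axis) of the 12 members called between the clones in the 5 libraries, ordered by log2 fold change, with symbols as in the plot of levels. Both clone 4 libraries (blue) lie below both clone 3 libraries (orange) in every gene, and parental cells (diamonds) lie near clone 4 for MX1, DDX58 and GBP3 and near clone 3 for IFITM1 and LGALS3BP.

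The IFITM genes, whose products hold back the fusion of virus with cell membranes, sit side by side at one end of chromosome 11 and were all lower in clone 4. IFITM1 (ENSG00000185885, chromosome 11, 310041 to 315272, plus strand) had 1719 in parental cells, 1853 in untreated and 1289 in GSK126-treated clone 3, and 229 in untreated and 243 in GSK126-treated clone 4. Parental cells resembled clone 3, and clone 4 held 0.137 of the parental level. For IFITM3 (ENSG00000142089, chromosome 11, 319676 to 329475, minus strand) the values were 311 in parental cells, 989 in untreated and 776 in GSK126-treated clone 3, and 169.9 in untreated and 193 in GSK126-treated clone 4, so that parental cells lay between the clones. IFITM2 (ENSG00000185201, chromosome 11, 303655 to 309397, plus strand) had 418 in parental cells, 720.3 in untreated and 586 in GSK126-treated clone 3, and 297 in untreated and 328 in GSK126-treated clone 4. The log2 fold change of clone 4 against clone 3 was -2.72 (SE 0.24, adjusted p 1.86e-27) for IFITM1, -2.28 (SE 0.27, adjusted p 1.27e-15) for IFITM3 and -1.06 (SE 0.27, adjusted p 0.00124) for IFITM2. The other 29 expressed genes within 1 Mb of IFITM1 had a median log2 difference between the clones of -0.16. The IFITM sequences are alike, so the estimated counts of one may include reads of another.

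MX1 (ENSG00000157601, chromosome 21, 42791947 to 42841998, plus strand), a GTPase that traps viral nucleocapsids, had 76.5 in parental cells, 453 in untreated and 462 in GSK126-treated clone 3, and 65.1 in untreated and 106 in GSK126-treated clone 4. The clone 3 libraries were 5.97-fold above parental cells on average, whereas the clone 4 libraries lay on either side of parental cells. The difference between the clones was -2.46 (SE 0.34, adjusted p 5.81e-11). Its paralog MX2 held 0 counts in parental cells and 11 over all EIR libraries, too few for a comparison.

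Both RNA sensors of the RIG-I family on the list were higher in clone 3. DDX58 (RIG-I, which detects RNA ends carrying a triphosphate, ENSG00000107201, chromosome 9, 32455300 to 32526206, minus strand) had 1255 in parental cells, 2161 in untreated and 2236 in GSK126-treated clone 3, and 1308 in untreated and 1114 in GSK126-treated clone 4. Parental cells lay within the range of clone 4, and the clones differed by -0.87 (SE 0.19, adjusted p 0.000157). IFIH1, described above, differed by -1.41 (SE 0.35, adjusted p 0.000953) with both clones above parental cells. The 3 other expressed genes within 1 Mb of IFIH1 had a median log2 difference between the clones of -0.90, and their part was not tested. DDX60, a helicase put forward as a helper of RIG-I, had 643 in parental and 587 to 708 in EIR cells.

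HERC5 and HERC6 adjoin each other on chromosome 4. HERC6 (ENSG00000138642, chromosome 4, 89299891 to 89364249, plus strand), a close relative of HERC5, had 125 in parental cells, 506 in untreated and 542 in GSK126-treated clone 3, and 155 in untreated and 206 in GSK126-treated clone 4, whereas HERC5 fell below parental cells in both clones. In each gene clone 4 was lower than clone 3, with a difference of -1.56 (SE 0.29, adjusted p 3.53e-06) for HERC6 and -1.69 (SE 0.52, adjusted p 0.0164) for HERC5. Among 11 other expressed genes within 1 Mb of HERC6, the median difference between the clones was -0.01.

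The guanylate-binding proteins, GTPases that respond above all to type II interferon, included a pair of members that were higher in clone 3. GBP3 (ENSG00000117226, chromosome 1, 89472362 to 89488577, minus strand) had 157 in parental cells, 539 in untreated and 591 in GSK126-treated clone 3, and 198 in untreated and 174 in GSK126-treated clone 4, with a difference between the clones of -1.61 (SE 0.29, adjusted p 6.51e-07). GBP1 (ENSG00000117228, chromosome 1, 89517565 to 89531043, minus strand) had 1 count in parental cells, and its normalized read counts were 1.01 in parental cells, 43.5 in untreated and 58.3 in GSK126-treated clone 3, and 4.07 in untreated and 8.46 in GSK126-treated clone 4. Clone 3 exceeded parental cells 50.3-fold with a 95% exact interval from 8.84 to 2006, and clone 4 exceeded them 6.18-fold with an interval from 0.914 to 264 that includes no difference. The clones differed by -3.09 (SE 0.93, adjusted p 0.0125). GBP2 did not pass, with 35.3 in parental cells, 56.5 and 72.1 in clone 3 and 40.7 and 38.1 in clone 4.

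SAMHD1 (ENSG00000101347, chromosome 20, 35518632 to 35580296, minus strand), which degrades nucleotides needed for reverse transcription, had 838 in parental cells, 2015 in untreated and 2107 in GSK126-treated clone 3, and 1159 in untreated and 1256 in GSK126-treated clone 4. All EIR libraries lay above parental cells, clone 3 the most, and the clones differed by -0.78 (SE 0.19, adjusted p 0.000782). LGALS3BP (ENSG00000108679, chromosome 17, 76967320 to 76976029, minus strand) had 6459 in parental cells, 6395 in untreated and 6366 in GSK126-treated clone 3, and 4399.6 in untreated and 4442 in GSK126-treated clone 4. Here clone 3 lay close to parental cells, and clone 4 was lower, with a difference of -0.54 (SE 0.16, adjusted p 0.0145). With GC correction, LGALS3BP had log2 fold changes against parental cells of 0.40 in clone 3 and -0.035 in clone 4. Clone 4 was then the one close to parental cells. The difference between the clones did not pass in edgeR (adjusted p 0.0784). Some low-count members had the same order without passing the test. CMPK2, a mitochondrial nucleotide kinase, had 41 counts in clone 3 and 3 in clone 4, a ratio of 12.6 with a 95% exact interval from 4.02 to 63.6 (adjusted p 0.12). RSAD2, its neighbor on chromosome 2, had 1.01 normalized read counts in parental cells, 15.7 and 12.8 in clone 3 and 2.03 and 4.23 in clone 4 (adjusted p 0.525).

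Markers that moved with the clones included EPCAM, CDH1 and NAPSA, all at most 6.10 in clone 4 as given above, and ITGAM, a leukocyte integrin, with 8.06 normalized read counts in parental cells, 93.5 and 97.8 in clone 3 and 3.05 and 9.52 in clone 4. The leukocyte list summed to 123.1 and 130.5 in clone 3 and 26.4 and 51.8 in clone 4, and its defining marker PTPRC (CD45) held 6.48 and 14.8 in clone 3 and 2.03 and 10.6 in clone 4. The part of these markers in the difference between the clones was not tested. In bulk RNA, fewer cells that express a gene and less RNA per cell cannot be told apart. Without the GSK126-treated library of clone 3, 7 members were called lower in clone 4. Without its untreated library, 8 were.

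Among members with a mean of at least 1000 normalized read counts, EIF2AK2, ADAR, PARP14, DTX3L and PLSCR1 passed neither the comparison of EIR with parental cells nor that of the clones. ADAR had 9058 in parental cells, 9081 in untreated and 8543 in GSK126-treated clone 3, and 9277 in untreated and 9482 in GSK126-treated clone 4. Parental cells lay within the range of the EIR libraries, and the log2 fold change of EIR against parental cells was 0.01 (SE 0.14, adjusted p 0.983). PARP14, an ADP-ribosyltransferase, had 3136 in parental cells, 3952 in untreated and 4048 in GSK126-treated clone 3, and 3233 in untreated and 3079.7 in GSK126-treated clone 4. DTX3L, a ubiquitin ligase that pairs with PARP9, had 1122 in parental cells, 1615 in untreated and 1906 in GSK126-treated clone 3, and 1407 in untreated and 1572 in GSK126-treated clone 4, with a log2 fold change against parental cells of 0.65 (SE 0.21, adjusted p 0.00866) in clone 3 and 0.41 (SE 0.21, adjusted p 0.122) in clone 4. PARP9, which shares a bidirectional promoter with DTX3L, had 533 in parental and 621 to 688 in EIR cells. PLSCR1, a phospholipid scramblase, had 1308 in parental cells, 1169 in untreated and 1148 in GSK126-treated clone 3, and 1661 in untreated and 1313 in GSK126-treated clone 4, and the log2 fold change of clone 4 against clone 3 was 0.34 (SE 0.20, adjusted p 0.394).

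The IFIT genes form a cluster on chromosome 10, and their products bind foreign RNA. IFIT1 had 584 in parental cells, 303 in untreated and 307 in GSK126-treated clone 3, and 494 in untreated and 345 in GSK126-treated clone 4. It was below parental cells in every EIR library, passing the test in clone 3 at -0.94 (SE 0.31, adjusted p 0.0117) but not over the 4 EIR libraries (adjusted p 0.162). IFIT2 had 208 in parental and 137 to 202 in EIR cells, IFIT3 239 and 309 to 444, and IFIT5 704 and 813 to 1051. In all 4 genes the clone 4 mean exceeded the clone 3 mean. No difference between the clones passed the test, IFIT1 having the lowest adjusted p of 0.51. Between GSK126-treated libraries, IFIT1 and IFIT2 kept this order. It was reversed there for IFIT3 (324 in clone 4 and 339 in clone 3) and IFIT5 (900 and 915). The other 445 expressed genes of chromosome 10 had a median log2 ratio to parental cells of -0.41 in clone 3 and -0.42 in clone 4. The 9 expressed genes within 1 Mb of IFIT1, other IFIT genes included, had medians of -0.55 in clone 3 and -0.33 in clone 4. For IFIT2, IFIT3 and IFIT5 these medians were -0.79 and -0.50. The median difference of clone 4 minus clone 3 around the IFIT genes was 0.23 to 0.30. The part of these other genes in the IFIT values was not tested. LIPA overlaps IFIT1, IFIT2 and IFIT3 on the opposite strand in the annotation, and the sources used here do not say if reads were assigned by strand.

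Of the transcription factors of the list, STAT2 fell as described. IRF1, the factor that type II interferon induces, had 521 in parental cells, 593 and 607 in clone 3 and 398 and 388 in clone 4 (adjusted p 0.115 between the clones). IRF7, which amplifies interferon production, was low with 56.4 in parental and 47.6 to 70.2 in EIR cells. IRF9 was lower than parental cells in clone 4, at -1.18 (SE 0.36, adjusted p 0.00544), and had -0.54 (SE 0.36, adjusted p 0.28) in clone 3. The tripartite motif gene TRIM22 had 200.4 in parental cells, 139 and 154 in clone 3 and 252 and 249 in clone 4, and TRIM5 overlaps it on the opposite strand. Of the remaining members, ISG20, an RNA exonuclease, had 45.3 in parental and 20.8 to 42.3 in EIR cells, XAF1, which counters an apoptosis inhibitor, 4.03 and 13.2 to 17.8, and EPSTI1 7.05 and 3.70 to 8.46.

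Other genes of the pathway were then read from a list of 56, of which 37 were in the table. The ligands were at or near 0. IFNA5, IFNB1, IFNG and IFNL1 held 2 counts or fewer in every library. IFNE, an interferon of epithelial cells of the reproductive tract, was the exception. It had 26.2 in parental cells, 27.8 in untreated and 16.8 in GSK126-treated clone 3, and 74.3 in untreated and 136 in GSK126-treated clone 4. It was higher in clone 4 than in clone 3 by 2.20 (SE 0.64, adjusted p 0.00956). MIR31HG, with a mean of 68.6 normalized read counts, overlaps IFNE on the same strand in the annotation. Its part in the IFNE values was not tested.

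Between the clones, 1 of 31 tested pathway genes was higher in clone 4 (IFNE) and 5 were lower, where 3.3% and 6.52% of all genes were. The lower genes included STAT3, the type II receptor subunit IFNGR1, the DNA-sensing adaptor TMEM173 (STING) and the signaling inhibitor SOCS3. IFNGR1 had 1481 in parental cells, 2863 in untreated and 3083 in GSK126-treated clone 3, and 1552 in untreated and 1292 in GSK126-treated clone 4. TMEM173 had 9.06 in parental cells, 100 in untreated and 67.2 in GSK126-treated clone 3, and 10.2 in untreated and 12.7 in GSK126-treated clone 4. Both resembled parental cells in clone 4. In EIR against parental cells, 4 of 30 were higher and 7 lower, where 12.4% and 13.2% of all genes were, so that the higher count was close to the share of all genes. The higher ones were the kinase TBK1, the DNA sensor IFI16, NLRC5, an activator of MHC class I genes, and the phosphatase PTPN2. The lower ones were the receptor subunits IFNGR2, IFNLR1 and IL10RB, the repressor IRF2, the adaptor MAVS, the RIG-I-like protein DHX58 and the phosphatase PTPN6. Among these higher and lower genes, only TBK1, IFNGR2 and MAVS kept the call in edgeR. IFNLR1 kept it in 2 of 10 alternatives, IL10RB and IFI16 in 4 and DHX58 in 5. MAVS, which relays the signal of both RIG-I and MDA5, had 1789.8 in parental cells, 1163 in untreated and 1188 in GSK126-treated clone 3, and 1146 in untreated and 1150.0 in GSK126-treated clone 4, and its log2 fold change was -0.62 (SE 0.15, adjusted p 0.000354).

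Lastly, the GSK126-treated EIR libraries were compared with the untreated ones. By DESeq2, 0 of 47 members passed in either direction, where 0% of 29847 genes passed upward and 0.00335% (1 gene) passed downward. No member reached an unadjusted p under 0.05, where only 0.392% of all genes did, and the lowest was 0.414 (IFIT1). Clone and treatment are crossed in this design, so the clone was also used as a replicate block. With the block, 4 genes were called and again 0 members, the lowest unadjusted p of a member being 0.214 (OAS3). In edgeR 0 members passed with or without the block, with 0 members at an unadjusted p under 0.05 in either fit. Of all genes, 0.945% reached that level in DESeq2 with the block. In edgeR 0.761% did without the block and 2.75% with it.

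Within a clone the changes were small. None of the 33 expressed members changed 2-fold with GSK126 in clone 3 or in clone 4. Of all expressed genes, 0.18% were 2-fold higher and 0.086% 2-fold lower in clone 3, and 1.77% and 0.51% in clone 4. The count of 0 members was thus near the share of all genes. The median log2 difference of treated minus untreated libraries was 0.05 in clone 3 and 0.01 in clone 4 (0.03 and -0.03 over all expressed genes), and its SD over the members was 0.19 and 0.32 (0.24 and 0.39 over all expressed genes). In clone 4 the widest positive difference was that of USP18, at 0.90 (95% exact interval for counting error 0.46 to 1.36), which in clone 3 was 0.06. MX1 had 0.70 in clone 4 and 0.03 in clone 3, and IFIH1 0.62 and 0.24. IFIT1 had the widest negative difference of clone 4, at -0.52, against 0.02 in clone 3. IFITM1 had the widest negative one of clone 3, at -0.52, against 0.09 in clone 4. HERC5 had the widest positive one of clone 3, at 0.47 (interval 0.12 to 0.84), and 0.47 in clone 4 (-0.21 to 1.17). With 1 library per clone and treatment, these values have no replicate check within a clone.

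**Figure D5:**
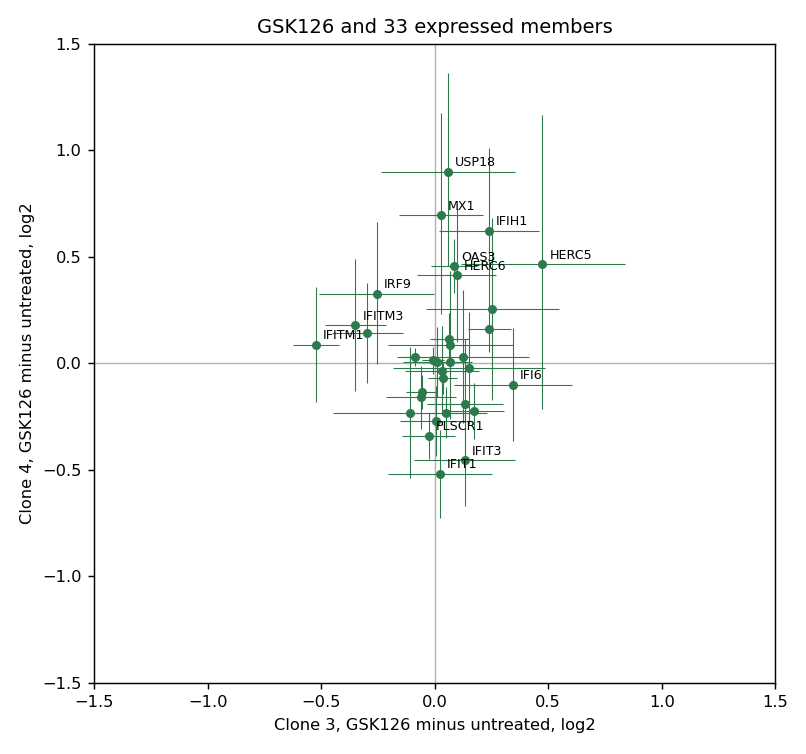
Log2 difference of GSK126-treated minus untreated libraries in clone 3 (horizontal) and clone 4 (vertical) for the 33 expressed members, with bars of the 95% exact interval for counting error. All points lie within 1 log2 unit of no change on both axes, USP18 highest at 0.90 in clone 4.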

How the data were processed

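Per the labels, the 5 libraries were made from total RNA with a strand-specific kit. The authors aligned reads to hg19 (bowtie2) and deposited expected counts from RSEM, which splits reads of similar genes by estimation. These were whole numbers, not normalized, and were used unchanged. The Ensembl release and strand setting are not given in the sources used here. Symbols and GRCh37 coordinates came from GENCODE release 44 (29203 of 30476 identifiers matched), and promoters from RefSeq (GRCh38.p14).

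R 4.3.3 was used to run DESeq2 1.42.0 on the whole table, with size factors by the median of ratios, its Wald test (two-sided) and Benjamini-Hochberg adjusted p under 0.05. EIR libraries were compared with parental cells as 1 group and per clone, and the 4 EIR libraries were compared by clone and by treatment. Scripts were tested on simulated data. The clone number pairs libraries of a clone, whose deviations from the group means correlated at r = 0.86 across 11564 expressed genes, which are not independent replicates. Log2 ratios of libraries used a pseudocount of 0.5. Exact intervals (Clopper-Pearson, 95%) cover counting error only.

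Alternatives were edgeR 4.0.16 (quasi-likelihood), TMM and total-count scaling, a filter of at least 10 counts in at least 2 libraries, GC correction, each EIR library left out, summed libraries per clone, the replicate block and no treatment covariate. The block in edgeR was added after seeing the data. The members and lists were chosen with earlier results of these data known. Named with every library's value were members called between EIR and parental cells or between clones and those averaging at least 1000 normalized counts, then extremes of families and called pathway genes. IFIT1, USP18, IRF9, the cell markers, TRIM22 and the GSK126 extremes were named after their values were seen. A few results for other genes are not reported here.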

Additional observations from a re-analysis of the deposited data

Results flagged for a closer look

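The members whose levels differed between clone 4 and clone 3 by the DESeq2 test of that difference were, in order of adjusted p, IFITM1 (log2 fold change -2.72, adjusted p 1.86e-27), IFITM3 (-2.28, 1.27e-15), MX1 (-2.46, 5.81e-11), GBP3 (-1.61, 6.51e-07), HERC6 (-1.56, 3.53e-06), DDX58 (-0.87, 0.000157), SAMHD1 (-0.78, 0.000782), IFIH1 (-1.41, 0.000953), IFITM2 (-1.06, 0.00124), GBP1 (-3.09, 0.0125), LGALS3BP (-0.54, 0.0145) and HERC5 (-1.69, 0.0164). Each of these had both clone 4 libraries below both clone 3 libraries.

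IFIT5 moved in opposite directions under GSK126 in the clones, by 0.17 in clone 3 (95% exact interval for counting error 0.04 to 0.31) and -0.22 in clone 4 (-0.36 to -0.09) on the log2 scale. With 1 library per clone and treatment this difference was not tested. Among the 33 expressed members, 0 had an EIR library standing apart from the other EIR libraries by Dixon's criterion. The libraries come in pairs by clone. Where the gap between the clones is the widest, no single library can stand apart by this criterion.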

How the results depend on the processing

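For EIR against parental cells the 8 calls became 4 in edgeR and ranged from 8 to 13 with an EIR library left out, highest without untreated clone 4. For clone 3 the 18 calls ranged from 10 to 18, and for clone 4 the 14 calls from 8 to 12. For clone 4 against clone 3 the 12 calls ranged from 7 to 17 with a library left out, where the treatment covariate had to be dropped because 3 libraries cannot carry it. The other alternatives left these counts within 1.5 times, and the GSK126 count stayed at 0 in every alternative, the replicate block and the replicate block with GC correction included. The blocked fits changed no call of a member.

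Of members called between EIR and parental cells, 75 of 80 alternative values kept the call and 5 lost it, and between the clones 110 of 120 kept it and 10 lost it. Against parental cells, 144 of 162 values kept the call in clone 3 and 103 of 126 in clone 4. Signs turned for members near no change in EIR against parental cells. With GC correction these were EIF2AK2 (-0.14), PLSCR1 (-0.22) and LGALS3BP (0.20). With a library left out they were IFITM2 (-0.049 to 0.38, negative without untreated clone 3), PLSCR1 (-0.11 to 0.072, negative without untreated clone 4) and ADAR (-0.0062 to 0.029, negative without either clone 4 library). ADAR had -0.0065 with TMM factors and -0.0065 in edgeR. In clone 4 against parental cells EIF2AK2 turned to -0.038 with GC correction. Scaling to total counts moved GSK126-treated clone 4 by 0.16 (log2) against parental cells and other EIR libraries by 0.003 to 0.08. The cause of these changes was not tested. Genes with few counts, such as GBP1, IFI44 and CMPK2, were limited by depth.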
